A study of Mus musculus with 18 samples.

Results

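Transcripts of 4 milk protein genes, Csn1s2a, Csn2, Csn3 and Wap, were followed across 18 RNA sequencing (RNA-seq) libraries of sorted endothelial cells (ECs), which form the inner wall of blood vessels. The genes were taken by name from the 16248 genes of the deposited data, and all 4 passed the filter on low values (3 or more libraries with an FPKM of 1 or more). FPKM are fragments per kilobase of summed exon length, scaled for library size. They were selected on their FPKM values, since Csn1s2a and Csn2 were low after treatment in normal tissue and the group varied between replicates, so those values are given below as a description, without a test.

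The series held 6 groups of 3 libraries from female FVB mice, made from live CD45-negative, CD31-positive cells that were enriched with CD31 beads and sorted. Normal ECs were isolated from wild type animals, from the fat pad of the mammary gland, and no age was stated for them. MMTV-PyMT ECs came from spontaneous breast tumours of mice in which the MMTV promoter drives the polyoma middle T oncogene (PyMT) in the mammary epithelium, treated from an age of 9 weeks. Implanted ECs came from tumours grown from PyMT tumour cells that were cultured for 2 days and placed with Matrigel into the fat pad of wild type FVB/NJ hosts of 8 to 9 weeks, and removal of the host's own gland was not stated. Each tissue was injected with phosphate-buffered saline (PBS) or with cGAMP, a cyclic dinucleotide that activates the innate immune protein STING, and was collected 3 hours later. The libraries of a group are separate samples from 3 mice by the study's description, but which libraries share an experiment was not stated, so p-values measure the spread between these libraries.

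Caseins are the main proteins of milk and are made by luminal cells of the mammary gland, the epithelial cells that face the duct lumen. Csn1s2a encodes an alpha-S2 casein and Csn2 encodes beta-casein, both calcium-binding phosphoproteins. Csn3 encodes kappa-casein, which sits on the surface of casein micelles and keeps them in solution, and Wap encodes whey acidic protein, a soluble protein of rodent milk. Prolactin, acting through its receptor Prlr, the kinase Jak2 and the transcription factors Stat5a and Stat5b, drives these genes in late pregnancy and lactation together with the luminal factor Elf5. ECs are not known as a source of milk proteins.

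On the genome build GRCm38 (mm10), with GENCODE M21 annotation, Csn2 (ENSMUSG00000063157.9) lies at chr5:87692624-87699630 on the minus strand, Csn1s2a (ENSMUSG00000061937.7) at chr5:87774567-87788797 on the plus strand and Csn3 (ENSMUSG00000001622.15) at chr5:87925579-87932665 on the plus strand. They belong to the casein cluster, which begins with Csn1s1 (alpha-S1 casein) and spans 266.5 kb to the end of Csn3. Wap (ENSMUSG00000000381.10) lies on another chromosome, at chr11:6635482-6638637 on the minus strand. None of the 4 genes shares exon bases with another gene, and none of their transcripts shares a stretch of 75 bases, the read length, with a transcript of another gene. The counted exons exceed the main transcript of each gene. The ratio of summed exon length to main transcript was 5.21 for Csn2 (6926 against 1329 bases), 3.81 for Csn1s2a, 2.60 for Csn3 and 1.83 for Wap, so levels per main transcript would be higher by these factors and the order of genes within a library partly reflects the annotation.

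To show the regulatory sequence next to Csn1s2a and Csn2, which varied together, and next to Wap, which lies outside the casein cluster, the 150 bases upstream of the RefSeq start are printed for 3 of the 4 genes (GRCm38.p6, 5′ to 3′ on the gene's strand). Csn2 is from chr5:87699426-87699575, Csn1s2a from chr5:87774300-87774449 and Wap from chr11:6638650-6638799. Capitals mark the letters TTCNNNGAA, the spaced palindrome that STAT5 proteins recognise, which reads the same on both strands.
Csn2: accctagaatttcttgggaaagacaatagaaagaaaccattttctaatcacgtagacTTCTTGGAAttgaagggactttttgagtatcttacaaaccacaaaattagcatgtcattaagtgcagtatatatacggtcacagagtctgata
Csn1s2a: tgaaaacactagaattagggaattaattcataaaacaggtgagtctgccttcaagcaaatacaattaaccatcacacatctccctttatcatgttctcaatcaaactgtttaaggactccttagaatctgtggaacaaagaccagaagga
Wap: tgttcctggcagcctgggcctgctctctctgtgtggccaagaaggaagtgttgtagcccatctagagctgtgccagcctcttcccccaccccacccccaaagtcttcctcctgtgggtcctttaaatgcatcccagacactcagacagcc
In windows from 250 bases before to 50 bases after the RefSeq start, Csn2 held the motif as TTCTTGGAA with its first base at -93 (-1 is the base before the start). Csn1s1 held it as TTCTTAGAA at -100, and Csn1s2a held it as TTCTTAGAA from base 21 counted from the RefSeq start. The GENCODE M21 starts of Csn1s2a, Csn2 and Wap differ from the RefSeq starts. By GENCODE, Csn1s2a begins at chr5:87774567, so its motif lies upstream of the gene. The printed Csn2 bases lie within the GENCODE gene, which on the minus strand begins at chr5:87699630. The windows of Wap and of Lalba (alpha-lactalbumin, the milk protein needed for lactose synthesis) held none. Of 32851 promoter windows of the same length, 2726 (8.30%) held the motif. A match describes these letters and is not evidence of binding, and sequence further upstream was not searched.

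The libraries held transcripts of endothelial genes and of genes listed for epithelial cells, and the source of the latter was not tested. Recovered reads numbered 8959502 to 11920692 per library, a 1.33-fold range. The EC genes Cdh5, Pecam1 and Eng were at 102 to 782 FPKM in the 18 libraries. The 24 listed luminal epithelial genes in the table, led by the keratins Krt18 and Krt8 and the adhesion molecule Epcam, summed to between 412 and 1514 FPKM, against 950 to 2455 for the 12 endothelial genes, although the cells had been sorted on CD31. All 8 genes of a cGAMP response list rose with cGAMP in each tissue (limma, Benjamini-Hochberg adjusted p below 0.05 and a log2 change of at least 1, the rule for a call used throughout).

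Csn1s2a covered a 430-fold range, from 0.136 to 58.3 FPKM. It was highest in normal ECs under PBS, at 58.3, 52.0 and 17.4 FPKM in libraries 1 to 3 (mean 42.6 ± 22.0, SD, n = 3). In normal ECs under cGAMP it was at 0.424, 2.99 and 0.184 FPKM, which rest on 7 to 118 reads. The normal groups did not overlap, and their means differed 35.5-fold. MMTV-PyMT ECs under PBS had 0.752, 9.03 and 8.20 FPKM, and those under cGAMP had 26.4, 28.2 and 1.09 FPKM. In each of these groups 1 library, PBS 1 and cGAMP 3, stood at least an order of magnitude below its replicates. Implanted ECs had 1.16, 1.87 and 4.74 FPKM under PBS and 0.375, 0.136 and 0.169 FPKM under cGAMP, the latter from 21 reads over 3 libraries. The implanted groups did not overlap. How many of all tested genes separate by treatment within a tissue was not counted.

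Csn2 covered a 192-fold range, from 0.213 to 40.9 FPKM, and was not ordered by tissue. Under PBS it was at 40.9, 25.8 and 12.7 FPKM in normal ECs (mean 26.5 ± 14.1) and at 13.7, 15.7 and 33.8 FPKM in implanted ECs (21.1 ± 11.0). These groups overlapped. Under cGAMP, normal ECs had 0.290, 11.1 and 0.213 FPKM, so that library 2 stood far above the others, and implanted ECs had 3.94, 6.30 and 1.58 FPKM. MMTV-PyMT ECs had 0.598, 22.6 and 7.10 FPKM under PBS and 27.3, 28.3 and 1.36 FPKM under cGAMP. The low libraries, normal cGAMP 1 and 3, MMTV-PyMT PBS 1 and MMTV-PyMT cGAMP 3, were those in which Csn1s2a was low as well. From the highest to the lowest group mean, each group overlapped the next in both Csn1s2a and Csn2.

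Csn3 was the most abundant of the 4 transcripts in the tumours and the least variable. Normal ECs had 62.7, 39.7 and 46.4 FPKM under PBS and 43.0, 29.7 and 38.2 FPKM under cGAMP. MMTV-PyMT ECs had 440, 696 and 629 FPKM under PBS and 639, 480 and 361 FPKM under cGAMP, about an order of magnitude higher. The mean ratio to normal ECs was 11.9 under PBS and 13.3 under cGAMP. Implanted ECs had 424, 342 and 464 FPKM under PBS and 149, 253 and 279 FPKM under cGAMP. All 12 tumour libraries lay above all 6 normal libraries, and the implanted cGAMP libraries lay below the other tumour libraries. How many of all tested genes separate in these ways was not counted. At 1387 to 33160 reads, counting error in Csn3 was small against the differences between libraries.

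Wap was close to the detection limit in normal ECs and well detected in tumours. Normal ECs had 0.756, 0.920 and 0.0915 FPKM under PBS and 0.0866, 0.529 and 0.365 FPKM under cGAMP, which rest on 1 to 11 reads per library. MMTV-PyMT ECs had 11.8, 60.0 and 30.5 FPKM under PBS and 45.9, 37.4 and 27.7 FPKM under cGAMP. Implanted ECs had 25.3, 19.4 and 33.8 FPKM under PBS and 8.42, 12.6 and 12.3 FPKM under cGAMP. The tumour libraries lay above every normal library, and how many of all tested genes do so was not counted. The ratio of means to normal ECs was 57.8 for MMTV-PyMT and 44.4 for implanted ECs under PBS, against only 21 reads in the 3 normal PBS libraries, and it ignores their counting error. In the order of group means, the MMTV-PyMT groups and implanted PBS overlapped one another from neighbour to neighbour, as did the 2 normal groups, and implanted cGAMP overlapped neither of its neighbours in that order, implanted PBS and normal PBS.

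**Figure D1:**
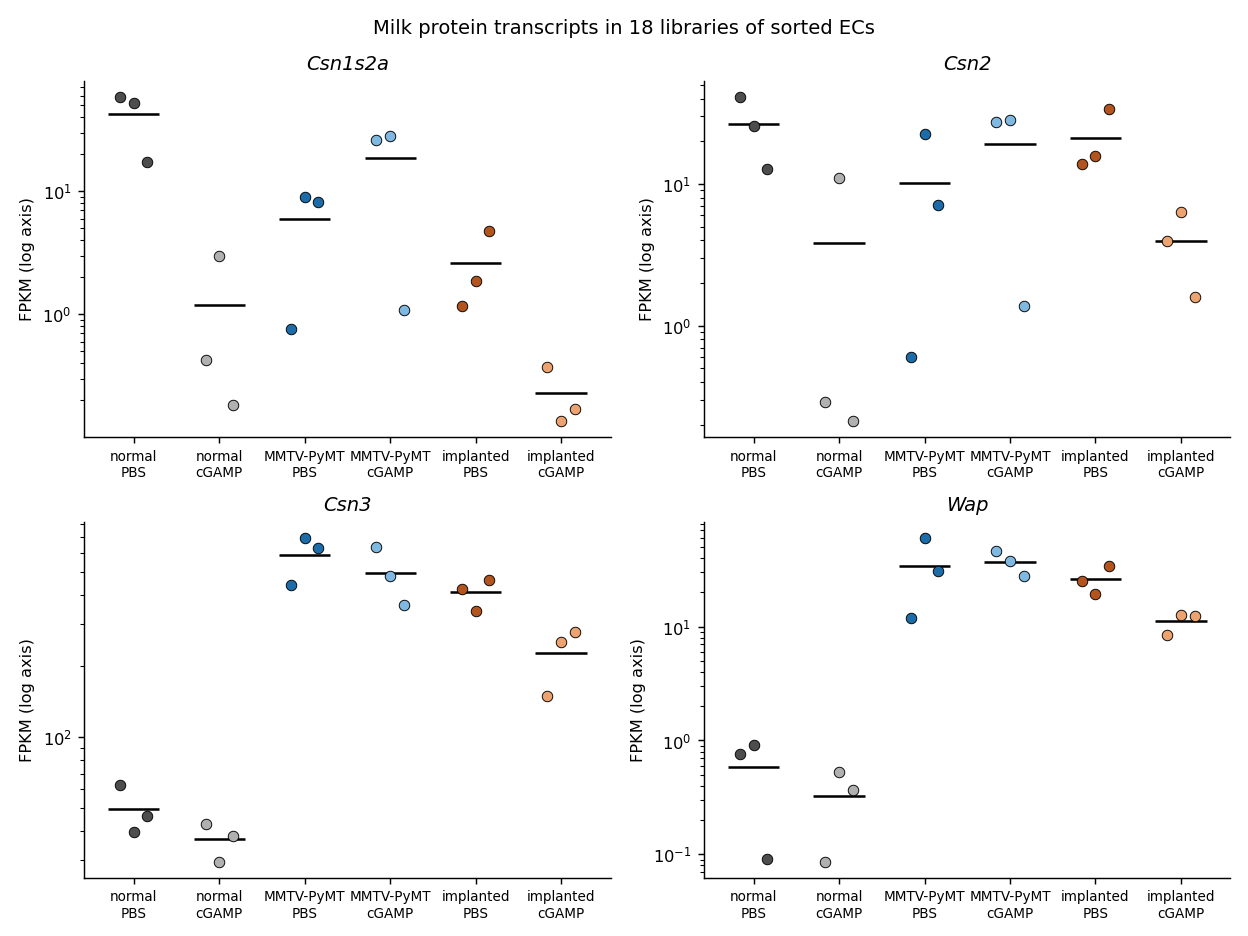
FPKM of each gene (vertical log axis) in the 18 libraries, by tissue and treatment on the horizontal axis. Each point is a library and each bar is a group mean of 3 libraries. Csn3 and Wap separate all tumour libraries from all normal libraries, and how many other genes do so was not counted. Csn1s2a and Csn2 spread over more than 10-fold within normal cGAMP and within both MMTV-PyMT groups.

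Under PBS the 4 genes took different shares in the tissues. Csn3 made up 31.3 to 56.3% of their reads in normal PBS libraries, 98.0, 58.5 and 98.5% in normal cGAMP libraries 1 to 3 and 85.7 to 99.0% in the tumour libraries, so that 2 of the normal cGAMP libraries lay within the tumour range. The ratio of Csn3 to Csn2 in FPKM was 1.54 to 3.64 in normal PBS libraries, 13.7 to 30.8 in implanted PBS libraries and 30.8 to 736 in MMTV-PyMT PBS libraries. Under cGAMP it was 148, 2.69 and 180 in normal cGAMP libraries 1 to 3, against 17.0 to 265 in the tumour cGAMP libraries. Within the casein cluster, Csn2 was 7.13 to 46.4 times Csn1s2a in the 6 implanted libraries and 0.496 to 3.69 times Csn1s2a in the other 12. Csn1s1 was 7.32 to 28.1 times Csn2 in the implanted libraries, against 1.74 to 8.10 times in normal and 1.17 to 5.50 times in MMTV-PyMT libraries. These ratios describe the libraries and were not tested.

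**Figure D2:**
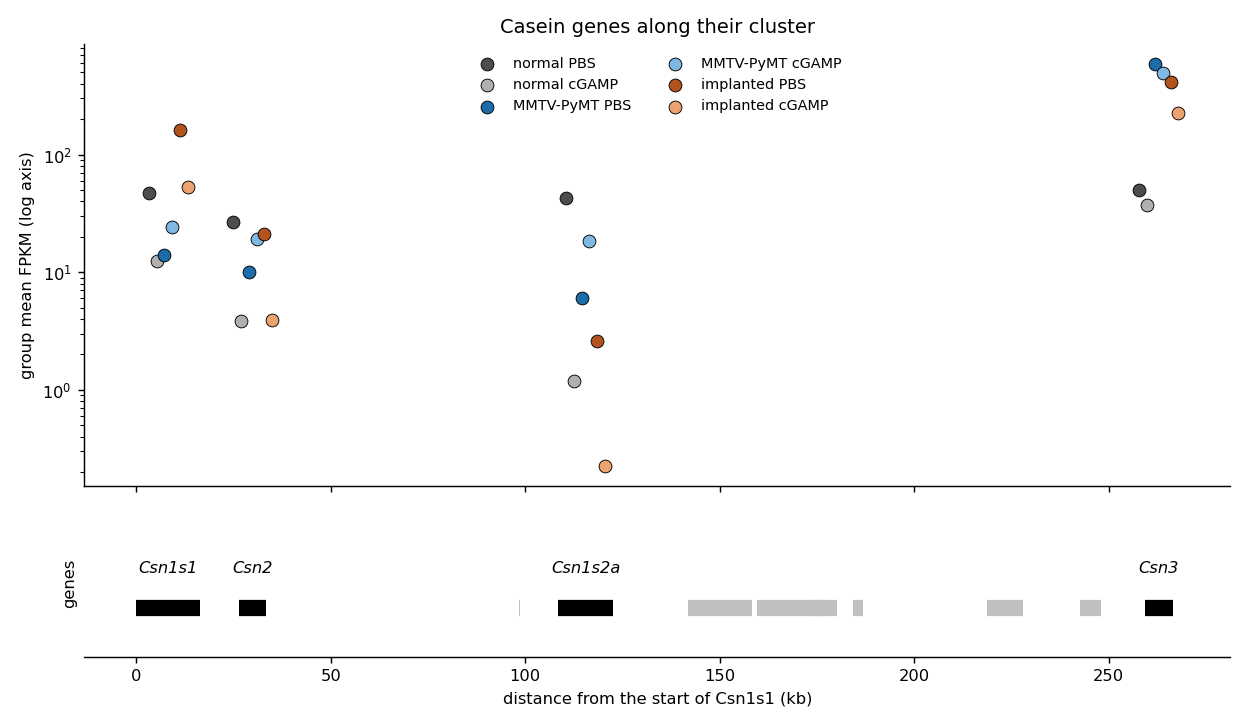
Group mean FPKM (vertical log axis, upper panel) of the casein genes listed (4 of the cluster), drawn at their distance in kb from the start of Csn1s1. Points of a gene are set slightly apart for legibility, and the lower panel shows genes to scale, black where values were given and grey otherwise. Csn3 at the far end of the cluster is lowest in normal ECs, with means of 49.6 FPKM under PBS and 37.0 FPKM under cGAMP. Csn1s2a is highest in normal ECs under PBS, with a mean of 42.6 FPKM, against 1.2 FPKM in normal ECs under cGAMP.

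The spread between replicates was large in all 4 genes. The SD within groups, pooled over the 6 groups on the log2(FPKM + 1) scale, was 1.49 for Csn2, 1.23 for Csn1s2a, 0.56 for Wap and 0.35 for Csn3, against a median of 0.161 over the 13983 tested genes. Csn2 ranked 1, Csn1s1 (1.28) ranked 2 and Csn1s2a ranked 3 of all tested genes. Wap ranked 182 and Csn3 992. Since the 4 genes were selected partly on their spread between replicates, their ranks are a description.

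Libraries of 1 group deviated together in Csn1s2a, Csn2 and Csn1s1. After the group mean was subtracted from each library, Pearson's r over the 18 libraries was 0.92 between Csn1s2a and Csn2, 0.90 between Csn1s2a and Csn1s1 and 0.97 between Csn2 and Csn1s1 (Spearman's rho 0.93, 0.95 and 0.99). The same deviations had r = 0.03 for Csn1s2a and 0.08 for Csn2 with the summed luminal list, -0.06 and -0.17 with Lalba, 0.21 and 0.21 with Epcam and 0.27 and 0.31 with Elf5. Csn3 differed from this. Its deviations had r = 0.79 with Epcam, 0.83 with Lalba and 0.67 with the summed luminal list, -0.76 with the summed endothelial list and only 0.26 with Csn1s1. Wap lay between these patterns, with 0.74 to Csn2, 0.67 to Csn1s1, 0.58 to Csn3 and 0.37 to the luminal list. The values share their libraries, their scaling and 12 independent deviations, so they are given as a description.

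In single libraries the difference was plain. MMTV-PyMT PBS 1 had 0.598 FPKM of Csn2 and 3.29 FPKM of Csn1s1, where its replicates had 7.10 or more and 12.4 or more, but its summed luminal level of 1405 FPKM was close to the 1514 FPKM of both replicates. Normal cGAMP 2 had 11.1 FPKM of Csn2 against at most 0.290 in its replicates, and 690 FPKM of the luminal list, between its replicates at 658 and 741. Csn2 was thus 0.0323 to 5.02% of the summed luminal level across the 18 libraries. What set the casein level of a library apart from its epithelial level was not tested.

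**Figure D3:**
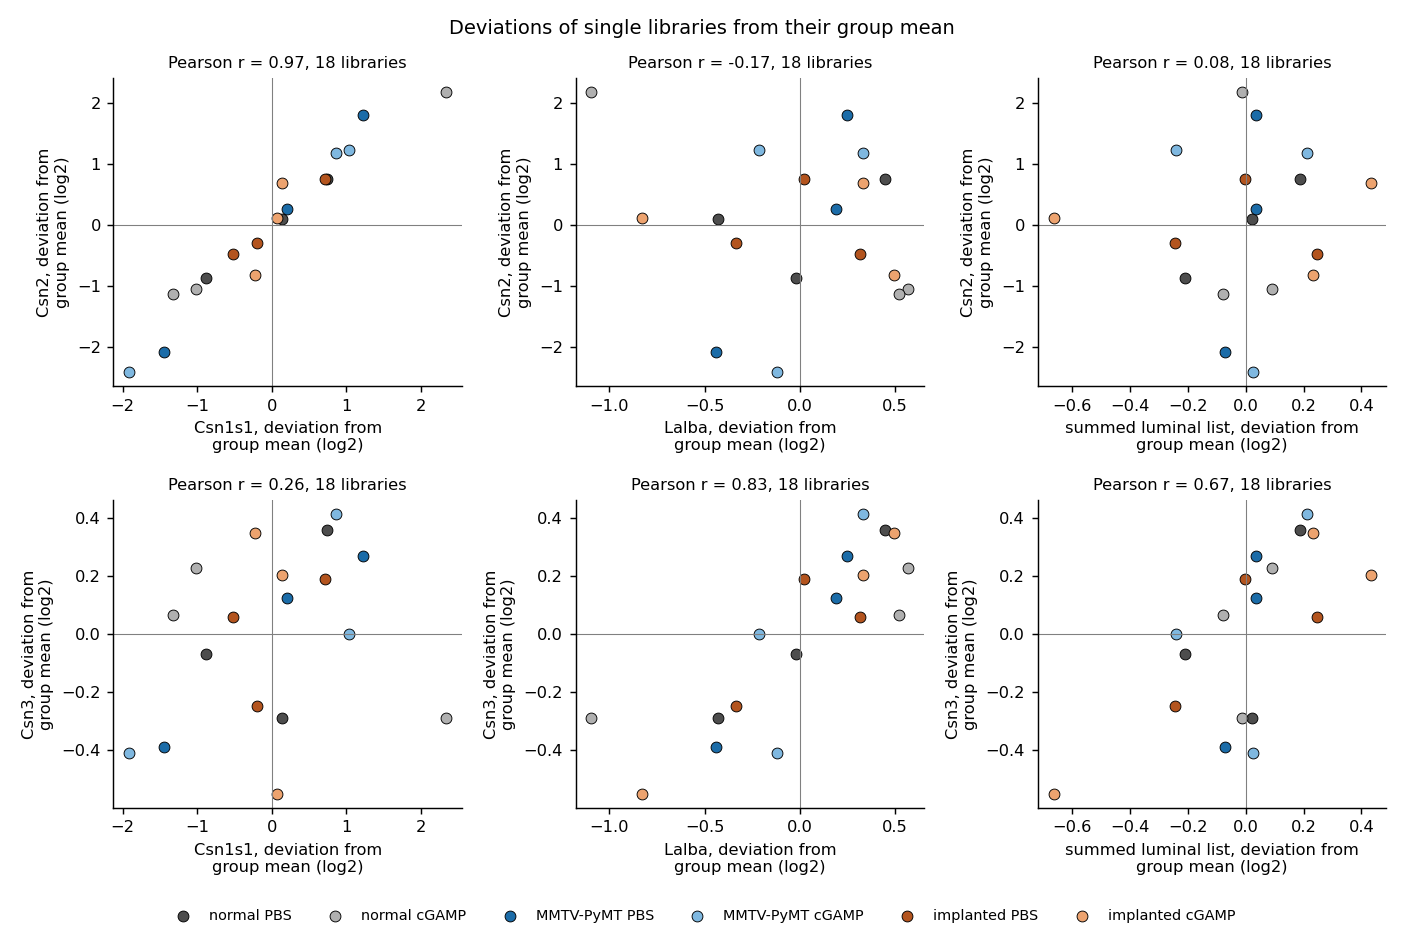
Deviation of each library from its group mean on the log2(FPKM + 1) scale, for Csn2 (upper row) and Csn3 (lower row) on the vertical axis against Csn1s1, Lalba and the summed luminal epithelial list on the horizontal axis. Points are 18 libraries coloured by group. Csn2 follows Csn1s1 (r = 0.97) and not the luminal list (r = 0.08), whereas Csn3 follows Lalba (r = 0.83) and the luminal list (r = 0.67).

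Genes whose pattern was most like each transcript were ranked by Pearson's r of log2(FPKM + 1) over the 18 libraries, leaving out the 4 genes themselves. For Csn1s2a these were Btn1a1 (0.824), which encodes butyrophilin of the milk fat globule membrane, then Ttc32, Arpin, Zfp939 and Zfp58. For Csn2 they were Csn1s1 (0.771), then Gtf3a, Nagk, Zranb2 and Rrp36 at 0.706 or less. For Csn3 they were Nans (0.992), an enzyme of sialic acid synthesis, then Serinc2, Col9a1, 1110008P14Rik and Stk39. For Wap they were Trim46 (0.974), Saa1 (0.974), Nans (0.972), Saa2 and Clca3a2, where Saa1 and Saa2 encode acute phase proteins of very similar sequence, so that their reads may be split between them. The high values of Csn3 and Wap reflect the step from normal to tumour libraries. With group means subtracted, Csn1s1 ranked first for both Csn1s2a and Csn2, followed in both by Nr6a1os (0.828 and 0.819), an antisense gene whose reads may be mixed with those of its partner, and the leading genes were Tlcd1 (0.916) for Csn3 and Lao1 (0.870) for Wap.

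Normal ECs were compared under cGAMP and PBS to see how the tissue without tumour responded. On the log2(FPKM + 1) scale the mean difference was -4.36 in Csn1s2a, -3.23 in Csn2, -0.40 in Csn3 and -0.23 in Wap. The treated libraries lay below all PBS libraries in Csn1s2a and Csn2, and how many of all tested genes do so was not counted. In this comparison 3.70% of all tested genes were called in either direction. Of the 19 other milk genes with values, 4 fell and 1 rose, with a median of -0.57 against -0.045 over all tested genes. Csn1s1 fell by 2.67 (SE 0.91, limma adjusted p = 0.0349), Spp1 (osteopontin) fell by 2.01 (0.40, adjusted p = 0.00133), Btn1a1 fell by 1.75 and Lalba by 1.39, while Plin2, the coat protein of lipid droplets, rose by 1.20. Csn1s1 deviated together with Csn1s2a and Csn2, which were selected on these libraries, so its test is not independent of that selection. The call of Csn1s1 was lost without normal PBS 1 (-2.30), normal PBS 2 (-2.60), normal cGAMP 1 (-2.16) or normal cGAMP 3 (-2.01) and in a fit to the 6 normal libraries alone (-2.67, adjusted p = 0.0613), and that of Lalba without normal PBS 1 (-1.16) or normal cGAMP 2 (-0.84). None of the 24 luminal genes was called by limma, with 4 at an unadjusted p below 0.05 and 1 called by voom, and their summed level was 618 to 814 FPKM under PBS and 658 to 741 FPKM under cGAMP. Of 14 basal genes only Oxtr, the oxytocin receptor of myoepithelial cells, was called, and it fell by 1.80 (SE 0.22). The basal sum was 605 to 643 FPKM under PBS and 453 to 546 FPKM under cGAMP. It was carried by the smooth muscle actin Acta2 (means of 321 and 241 FPKM), which mural cells of vessels also express. The median change of the 14 basal genes was -0.26, against -0.045 over all tested genes. Single basal genes differed in direction. The mean of the basal keratin Krt14 was 23.1 FPKM under PBS and 23.4 FPKM under cGAMP. Means went from 33.2 to 29.0 FPKM in Krt5 and from 3.46 to 2.27 FPKM in Trp63. In Krt15 the mean went from 4.32 to 6.16 FPKM, and Krt17 was also higher under cGAMP. In bulk samples, fewer cells of a type and less RNA per cell cannot be told apart.

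Among 20 genes of the prolactin pathway in normal ECs, Socs1, a feedback inhibitor of JAK kinases that is also induced by interferon, rose by 2.43 and Jak2 rose by 1.27, and no other passed the rule for a call. Elf5 stood at -0.92 (adjusted p = 0.0129), below the fold limit, with 12.3 ± 2.88 FPKM under PBS and 6.02 ± 1.35 FPKM under cGAMP (n = 3). Prlr was at 29.7 ± 4.50 and 26.4 ± 8.66 FPKM, a log2 difference of -0.21 with a 95% interval from -0.77 to 0.35. Stat5a was at 0.84, below the fold limit.

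In MMTV-PyMT ECs none of the 4 transcripts was called between cGAMP and PBS, by limma or by voom, and none had an unadjusted p below 0.05. Over all tested genes 2.56% were called in either direction. The log2 differences were 1.12 in Csn1s2a (95% interval -0.73 to 2.98), 0.89 in Csn2 (-1.37 to 3.15), -0.26 in Csn3 (-0.81 to 0.28) and 0.36 in Wap (-0.50 to 1.21). The interval of Csn2 leaves room for changes past the fold limit either way, and that of Csn1s2a for a rise past it. Without MMTV-PyMT PBS 1, which had the lowest Csn2 of these libraries, the values of Csn2 and Wap turned to -0.14 and -0.23, and the value of Csn1s2a was 0.30, against 2.38 without MMTV-PyMT cGAMP 3. None of the 19 other milk genes was called by limma or voom, with 4 at an unadjusted p below 0.05, and Lalba was at 361 to 583 FPKM under PBS and 637 to 928 FPKM under cGAMP. Of 38 epithelial genes the epithelial transcription factor Ovol1 rose by 1.10 and the keratin Krt17 by 1.14. Krt17 was not called without MMTV-PyMT PBS 1, PBS 3, cGAMP 1 or cGAMP 3 (0.93 to 1.13), nor Ovol1 without cGAMP 1 (0.83). Socs1 and Jak2 again rose, by 2.71 and 1.23.

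In implanted ECs only Wap was called between cGAMP and PBS. All 4 transcripts were lower in every cGAMP library than in any PBS library, but how many of all tested genes separate in this way was not counted. Over all tested genes 7.22% were called in either direction and 1.09% were called lower. Wap fell by 1.15 (SE 0.40, limma adjusted p = 0.033, range over 24 alternatives 0.00478 to 0.129), a ratio of means of 2.36. Csn3 differed by -0.89 (SE 0.26, adjusted p = 0.0123), which is below the fold limit. Csn2 differed by -2.17 (95% interval -4.43 to 0.09, adjusted p = 0.119) and Csn1s2a by -1.43 (-3.29 to 0.43, adjusted p = 0.212), in a fit whose shared estimate of spread includes the wide MMTV-PyMT and normal groups. In a fit to the 6 implanted libraries alone, Csn1s2a and Csn2 were called as well (adjusted p = 0.0178 and 0.0103) and the value of each change was unaltered. The call of Wap was lost with voom (adjusted p = 0.0726), with a pseudocount of 0.1 (0.129) and without implanted PBS 1 (adjusted p = 0.0706), implanted PBS 3 (0.120) or implanted cGAMP 1 (0.116), and Csn3 was called without implanted PBS 2 (-1.01) or implanted cGAMP 3 (-1.06).

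Other cell markers moved beside these values in implanted ECs. The luminal sum was 712 to 1000 FPKM under PBS and 412 to 880 FPKM under cGAMP, with the lowest value in implanted cGAMP 1, which also had the highest endothelial sum of 2455 FPKM. Of 24 luminal genes Krt19 fell by 1.28 and Cldn3 by 1.03, and the median was -0.26 against -0.014 over all tested genes. Epcam stood at 0.16, while the mean went from 130 to 112 FPKM in Krt18 and from 108 to 94.5 FPKM in Krt8. The sum of 8 leukocyte genes was 435 to 693 FPKM under PBS and 597 to 1368 FPKM under cGAMP, but Cd74, an antigen presentation gene that is not limited to leukocytes, made up most of it (means of 528 and 922 FPKM), and Ptprc, which encodes CD45, was at 0.808 and 4.24 FPKM. Of the other milk genes, Btn1a1 fell by 1.36, the water channel Aqp5 by 1.23, and the phosphate transporter Slc34a2 was called just past the fold limit, while Xdh, xanthine oxidoreductase of the milk fat globule, which ECs also express, rose by 1.63 and Plin2 by 1.04. Csn1s1 differed by -1.51 (adjusted p = 0.205) and Lalba by -0.90 (adjusted p = 0.0933). In the prolactin pathway Elf5 fell by 1.29, Socs1 rose by 2.60 and Jak2 by 2.13, and Prlr stood at -0.29. Without implanted cGAMP 1, the changes of Elf5 (-0.88), Krt19 (-0.95), Cldn3 (-0.61) and Aqp5 (-0.91) were below the fold limit. Cldn3 also lost its call without implanted PBS 1 (-0.85) and in a fit to the implanted libraries alone (adjusted p = 0.0642), Plin2 without implanted PBS 2 (0.98) and with scaling by total reads (0.72), and Slc34a2 without implanted PBS 3 (-0.78) or implanted cGAMP 1 (-0.76). The part of these cell markers in the values of the milk proteins was not tested.

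**Figure D4:**
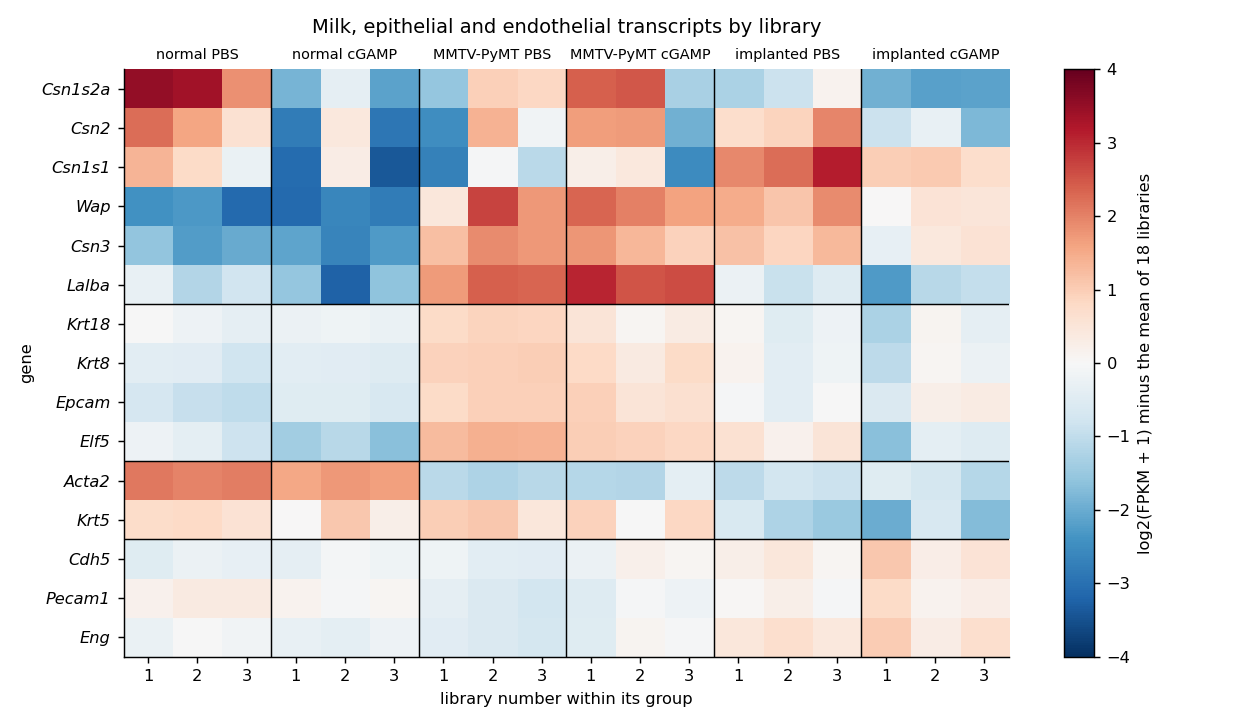
Level of milk, luminal, basal and endothelial transcripts in each library, as log2(FPKM + 1) minus the mean of the 18 libraries of that gene (colour scale, red high and blue low). Columns are libraries in 6 groups of 3, and black lines part the gene groups. Csn1s2a, Csn2 and Csn1s1 vary in shade between replicates in normal cGAMP and both MMTV-PyMT groups, where Krt18, Krt8 and Epcam vary less. In implanted cGAMP Krt18 varies more (60.8 to 161 FPKM) than Csn1s1 (44.6 to 57.7 FPKM). Wap and Csn3 turn from blue in normal to red in MMTV-PyMT libraries.

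Implanted and MMTV-PyMT ECs were compared within each treatment, to set tumours from cultured cells against spontaneous ones. Under PBS none of the 4 transcripts was called by limma or voom, and none had an unadjusted p below 0.05, whereas 7.33% of all tested genes were called. The log2 differences were -0.73 in Csn1s2a, 1.60 in Csn2 (95% interval -0.66 to 3.86), -0.50 in Csn3 (-1.05 to 0.04) and -0.13 in Wap (-0.99 to 0.72). The value of Wap became 0.40 without MMTV-PyMT PBS 2 and 0.06 without implanted PBS 2. Other milk genes did differ, 7 of 19 lower and 2 higher in implanted ECs. Csn1s1 was higher by 3.70 (SE 0.91, adjusted p = 0.00378), with group means of 161 and 14.0 FPKM, and Ltf (lactoferrin) was higher too, with 711 and 166 FPKM. Glycam1 was lower by 3.11 and Lalba by 2.69 (-3.11 and -2.69 on the log2 scale). Of 38 epithelial genes 9 were lower and none higher, led by Ly6d (-2.85), Krt5 (-1.95) and Sfn. Stat5a was lower as well (-1.38), and Elf5 stood at -0.93, below the fold limit.

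Under cGAMP, 3 of the 4 transcripts were lower in implanted ECs. Over all tested genes 10.4% were called in either direction and 3.36% were called lower. Csn1s2a differed by -3.28 (SE 0.88, limma adjusted p = 0.00552), with means of 0.227 and 18.6 FPKM. Wap differed by -1.64 (0.40, adjusted p = 0.00316), with means of 11.1 and 37.0 FPKM. Csn3 differed by -1.13 (0.26, adjusted p = 0.00183), with means of 227 and 494 FPKM. Csn2 differed by -1.47 (95% interval -3.73 to 0.79, adjusted p = 0.264) and its groups overlapped. Without MMTV-PyMT cGAMP 3, Csn2 was called too (-2.67), and Csn3 was below the fold limit without MMTV-PyMT cGAMP 1 (-0.92) or implanted cGAMP 1 (-0.85). Csn1s2a was not called by voom (adjusted p = 0.135).

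The same comparison moved other genes of the gland. Of the 19 other milk genes 8 were lower and 2 higher, led by Lalba (-4.18), Glycam1 (-3.37) and Btn1a1 (-2.59), and the median was -0.58 against 0.004 over all tested genes. Of 38 epithelial genes 7 were lower and none higher. Elf5 (-1.77) and Stat5a (-1.11) were lower. The luminal sum was 412 to 880 FPKM in implanted and 948 to 1299 FPKM in MMTV-PyMT ECs, without overlap, and the endothelial sum was 1501 to 2455 and 1041 to 1445 FPKM. The sum of 8 leukocyte genes was 597 to 1368 and 41.3 to 50.4 FPKM. Of these 8 genes 7 were called higher in implanted ECs, where 10.4% of all tested genes were called in either direction. The part of these cell markers in the difference of the milk proteins was not tested.

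**Figure D5:**
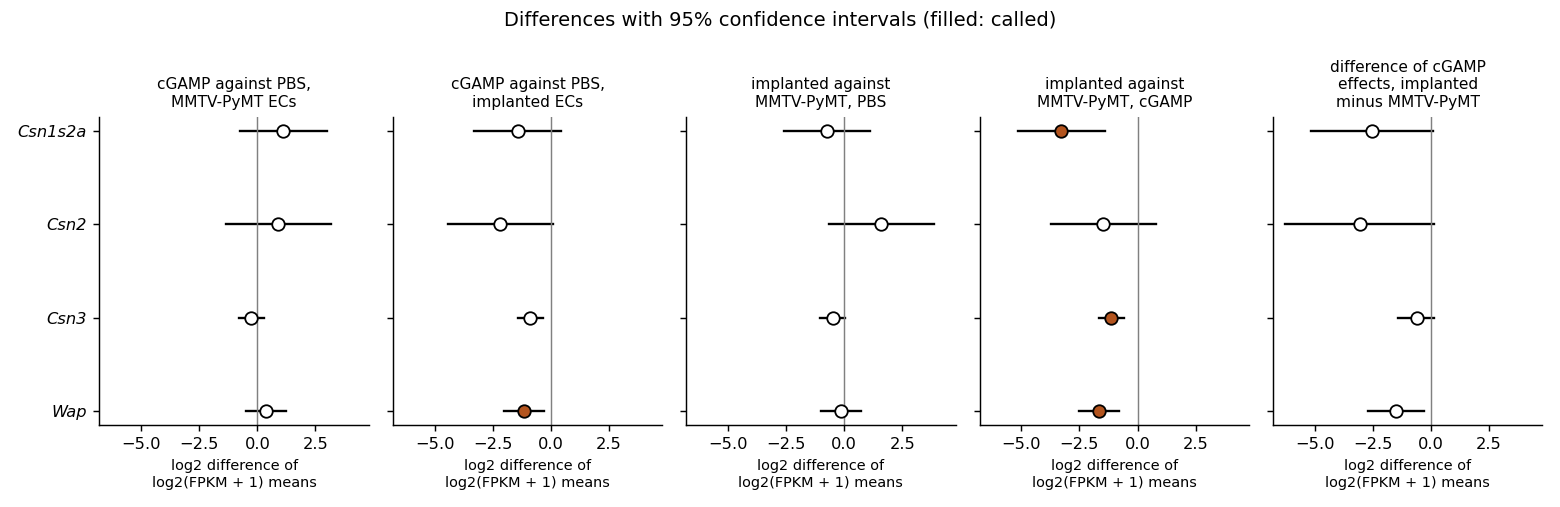
Difference of group means on the log2(FPKM + 1) scale (horizontal axis) for the 4 genes (vertical axis) in the 5 comparisons that were tested. Lines are 95% confidence intervals from limma and filled circles are called genes. Wap is called in implanted ECs (-1.15), and Csn1s2a (-3.28), Csn3 (-1.13) and Wap (-1.64) are called between the tumours under cGAMP.

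Whether the effect of cGAMP differed between the tumours was tested directly. None of the 4 transcripts was called by limma or voom in the difference of the cGAMP effects, implanted minus MMTV-PyMT, where 2.47% of all tested genes were called. The values were -1.51 in Wap (SE 0.57, unadjusted p = 0.0179, limma adjusted p = 0.106), -2.55 in Csn1s2a (95% interval -5.18 to 0.08), -3.07 in Csn2 (-6.26 to 0.13) and -0.62 in Csn3 (-1.40 to 0.15). All 4 estimates were below 0 and the comparison shares its libraries with the 4 above. Without MMTV-PyMT cGAMP 3, Csn1s2a was called (-3.80), and without MMTV-PyMT PBS 2, Wap was called (-2.04).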

How the data were processed

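The authors checked reads with FastQC, aligned paired-end reads to mm10 with STAR 2.7, counted them per gene with HTSeq and deposited FPKM values, and how FPKM were made and whether strand was used is not given in the sources used here. Columns naming only a treatment were taken as normal tissue, the remaining one, and C and S were read as PBS and cGAMP. Reads recovered from the FPKM were whole (within 0.02 reads) for 15771 of 16012 genes (98.49%) with exon lengths of GENCODE M21. FPKM denominators followed median-of-ratios size factors within 0.286%. All 18 replicate pairs differed beyond sampling noise. Depth gives counting error only.

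Genes with FPKM of at least 1 in at least 3 libraries (13983) were fitted as log2(FPKM + 1), which understates changes of low genes, with limma 3.58.1 (R 4.3.3, eBayes with trend, 2-sided, 1 mean per group, 18 libraries, Benjamini-Hochberg adjustment over all tested genes). Calls needed an adjusted p under 0.05 and a log2 change of at least 1. The code was tested on simulated data. Named genes were the 4 transcripts, the top 3 of each list by mean FPKM, up to 3 called genes per list and comparison with the largest change and the 5 genes most alike. Genes named beyond these were chosen after their values were seen. The 4 genes and all lists were chosen with earlier results of these data known. Alternatives were pseudocount 0.1, no filter, voom on recovered reads, scaling by total reads, fits to the compared libraries, a replicate block and leaving out each library.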

Additional observations from a re-analysis of the deposited data

Results flagged for a closer look

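The effect of cGAMP differed between implanted and MMTV-PyMT ECs in 1 of 19 other milk genes and 1 of 38 epithelial genes. The difference itself was tested (limma, implanted minus MMTV-PyMT), and 2.47% of all tested genes were called in it. Xdh had a difference of 1.08 (SE 0.15, adjusted p = 0.000321), with 40.6 ± 6.16 and 127 ± 14.7 FPKM under PBS and cGAMP in implanted ECs and 35.7 ± 2.68 and 52.7 ± 0.55 FPKM in MMTV-PyMT ECs (SD, n = 3). Oxtr had a difference of -1.21 (SE 0.32, adjusted p = 0.0207), with 3.08 ± 0.589 and 0.488 ± 0.335 FPKM in implanted ECs and 1.73 ± 0.549 and 1.31 ± 0.668 FPKM in MMTV-PyMT ECs. None of the 4 milk protein transcripts passed this test. Without implanted cGAMP 1 the difference was 0.98 in Xdh, below the fold limit, and -1.04 in Oxtr, and Oxtr also lost its call without MMTV-PyMT PBS 2 (-1.05) or MMTV-PyMT cGAMP 3 (-1.01). Xdh was below the fold limit without implanted PBS 2 (0.98) and with scaling by total reads (0.89) as well.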

How the results depend on the processing

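Of 120 member values under alternatives other than leaving out a library, 114 kept their direction and their call, 6 changed the call and none turned. Of 360 values with 1 library left out, 346 kept both, and 4 turned: Csn2 (-0.14) and Wap (-0.23) for cGAMP in MMTV-PyMT ECs, and Wap between tumours under PBS (0.40 and 0.06). Their ranges were -0.14 to 2.10, -0.23 to 0.89 and -0.72 to 0.40. Leaving out a library of a group outside the comparison cannot move its log2 change, so many of the 360 values could not turn. In implanted ECs the 1 member called under cGAMP became 0 with pseudocount 0.1, 0 with voom, 2 with scaling by total reads and 3 with the compared libraries alone, and 0 to 2 with a library left out. Members called ranged from 0 to 1 for the difference of effects and from 2 to 4 between tumours under cGAMP. Epithelial genes called in normal ECs became 3 with pseudocount 0.1, 3 with voom and 2 with total reads, against 1, with 1 to 3 when a library was left out (3 without normal cGAMP 1). They ranged from 0 to 2 in MMTV-PyMT ECs and from 0 to 2 for the difference of effects, and became 7 with pseudocount 0.1 and 7 with total reads in implanted ECs, against 4. Between tumours under cGAMP they became 15 with total reads, against 7, with 4 without implanted cGAMP 1 and 11 without implanted cGAMP 2. For the difference of effects they became 2 with pseudocount 0.1, against 1. The causes were not tested. The 5 genes most like a transcript by Pearson's r shared 2, 1, 2 and 1 genes with those by Spearman's rho for Csn1s2a, Csn2, Csn3 and Wap.

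Scaling by total reads moved the median gene by up to -0.249 (implanted cGAMP against PBS) and turned 857 higher and 153 lower genes there into 550 and 435. Between tumours it turned 598 and 427 into 458 and 590 under PBS and 981 and 470 into 554 and 897 under cGAMP, and in the difference of effects 258 and 88 into 142 and 157. All genes called, in the order of the normal, MMTV-PyMT, implanted, PBS, cGAMP and difference comparisons, numbered 518, 358, 1010, 1025, 1451 and 346, against 1039, 600, 1768, 1974, 2505 and 540 with pseudocount 0.1. With voom the first 5 numbered 1079, 576, 1764, 1963 and 2503.

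The replicate numbers did not pair the libraries: correlations of deviations lay between -0.35 and 0.26, and 1 of 15 exceeded 0.1. With a replicate block, epithelial genes called for the difference of effects became 2, and no call of a member changed (Wap in implanted ECs -1.15, adjusted p = 0.034). Depth limits Wap in normal ECs (1 to 11 reads) and Csn1s2a in implanted cGAMP libraries (4 to 11 reads).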
